A study of Mus musculus with 9 samples.

Results

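The 43 collagen chain genes of the RNA-seq table, found by gene symbols that start with Col, a number, the letter a and a second number, were examined across 3 lines of immortalised Cebpb-ko mouse embryonic fibroblasts (MEFs). The table lists 23337 genes, and the chains were placed in 7 classes, 11 fibrillar, 9 network-forming, 9 fibril-associated, 6 beaded filament, 4 transmembrane, 2 multiplexin and 2 others. All lines lack functional C/EBPβ of their own, have a mixed C57BL/6 x 129 background and had been stably transfected with a vector under Zeocin selection. The vector was empty (EV), or carried rat C/EBPβ-LAP (LAP) or rat C/EBPβ-LIP (LIP), its long and its short protein isoform. Each group had 3 libraries, numbered 1 to 3, and whether they are separate cultures, and whether a line is 1 clone or a pool, is not given in the sources used here. The p-values therefore measure the spread between these libraries, which may be technical.

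Collagens are trimers of chains that wind around each other into a triple helix. Fibrillar collagens form the tensile fibres of connective tissue, network collagens form sheets such as basement membranes, and fibril-associated and beaded filament collagens connect fibres with each other and with cells. Fibroblasts are the main producers of the fibrillar chains, which are hydroxylated and folded in the endoplasmic reticulum, secreted, trimmed at their ends and cross-linked outside the cell.

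Values are CPM, that is counts scaled to a common library size over all 9 libraries by edgeR's TMM method, unless they are given per kilobase of exon (CPM per kb), the only scale on which levels of different genes were compared. The libraries held 24839139 to 33522082 counts on genes, and 3 counts, the floor used here, corresponded to 0.0879 to 0.122 CPM, which covers counting error only. Groups were compared in pairs by the quasi-likelihood test of edgeR, p-values were adjusted over all genes tested after Benjamini and Hochberg, and a gene was called at an adjusted p under 0.05. A pair of groups is said not to overlap where all 3 libraries of one lie on the same side of all 3 of the other, for which the exact permutation test (two-sided) gives p = 0.1, its smallest value with 3 against 3. The lines held Vim, the intermediate filament of mesenchymal cells, at 3358 to 5092 CPM. Ptprc of leukocytes, Pecam1 of endothelium and Myod1 of muscle had 0 counts in all 9 libraries. Other markers of these tissues had counts in every library, Cd68 of leukocytes at 2.51 to 8.19 CPM, Kdr of endothelium at 1.02 to 2.8 and Des of muscle at 0.776 to 1.85. A count of 0 here does not show that a cell type was absent. Keratins of epithelia were also present, Krt8 at 387 to 792 CPM and Krt14 at 82.1 to 244 CPM.

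The collagen chains shown by sequence first are the short-chain network collagens, since Col8a2 and Col10a1, the chains called by edgeR's test on all 6 libraries without a block, belong to them. Col8a1 and Col8a2 encode the partner chains of collagen VIII, a sheet-forming collagen of Descemet's membrane and vessel walls, and Col10a1 encodes the chain of collagen X, known from hypertrophic cartilage. The 250 bases before the start of each gene in RefSeq are given 5′ to 3′ on the gene's strand (GRCm38.p6), at chr16:57754738-57754987 on the minus strand for Col8a1, chr4:126286544-126286793 on the plus strand for Col8a2 and chr10:34389731-34389980 on the plus strand for Col10a1, with matches to the motifs searched in capitals.
Col8a1: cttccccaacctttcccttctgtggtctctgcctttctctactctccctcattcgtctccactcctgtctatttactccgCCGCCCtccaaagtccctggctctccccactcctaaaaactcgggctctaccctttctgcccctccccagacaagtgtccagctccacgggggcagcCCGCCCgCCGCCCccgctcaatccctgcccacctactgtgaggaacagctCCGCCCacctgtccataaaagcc
Col8a2: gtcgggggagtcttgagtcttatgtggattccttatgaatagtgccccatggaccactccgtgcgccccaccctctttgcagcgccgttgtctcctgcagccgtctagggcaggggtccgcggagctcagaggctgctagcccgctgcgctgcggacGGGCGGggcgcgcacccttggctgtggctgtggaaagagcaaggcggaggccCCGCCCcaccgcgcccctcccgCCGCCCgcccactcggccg
Col10a1: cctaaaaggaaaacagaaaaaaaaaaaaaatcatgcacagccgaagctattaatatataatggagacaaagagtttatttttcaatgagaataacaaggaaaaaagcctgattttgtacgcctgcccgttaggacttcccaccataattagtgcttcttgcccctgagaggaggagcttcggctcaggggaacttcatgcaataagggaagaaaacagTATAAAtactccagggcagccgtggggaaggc
The capitals mark GGGCGG or its reverse complement in Col8a1, with 4 matches, and in Col8a2, with 3 matches, and TATAAA in Col10a1, with 1 match that begins 32 bases before the start. The G and C content of these windows was 60.8% for Col8a1, 70% for Col8a2 and 41.6% for Col10a1. Windows were listed for 35 of the 43 chains, 38 windows in all. Searched on both strands, GGGCGG was found in 57.9% of the chains' windows and in 32.7% of all 32851 windows, TATAAA in 13.2% and 12.4%, CCAAT in 34.2% and 33.8%, TTGCNNAA, a form of the C/EBP motif, in 7.89% and 9.56%, and TGANTCA, the AP-1 motif, in 2.63% and 6.75%. The 3 chains with TTGCNNAA in the window were Col13a1, Col4a6 and Col6a2, and none of them was called in any comparison. These matches describe the letters in the windows.

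Collagen chains took up a smaller share of the counted reads in LIP than in EV. They received 3.76%, 3.36% and 3.43% of all counts in EV 1, 2 and 3, 4%, 2.32% and 3.29% in LAP 1, 2 and 3, and 2.63%, 1.55% and 2.71% in LIP 1, 2 and 3. All LIP libraries lay below all EV libraries, while LAP overlapped with both. The mean share was 3.52% ± 0.212 in EV, 3.20% ± 0.841 in LAP and 2.30% ± 0.649 in LIP (SD, n = 3 each). The fibrillar class alone ranged from 2.43% to 2.83% in EV and from 1.04% to 1.86% in LIP, again without overlap. For the network class, the range of 0.523% to 0.692% in EV overlapped with 0.367% to 0.684% in LIP. Without Col1a1, Col1a2 and Col3a1, the chains with the most counts, the share was 1.23% to 1.43% in EV and 0.799% to 1.29% in LIP, and the groups overlapped. In bulk RNA, fewer cells of a kind and less of an mRNA per cell cannot be told apart.

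**Figure D1:**
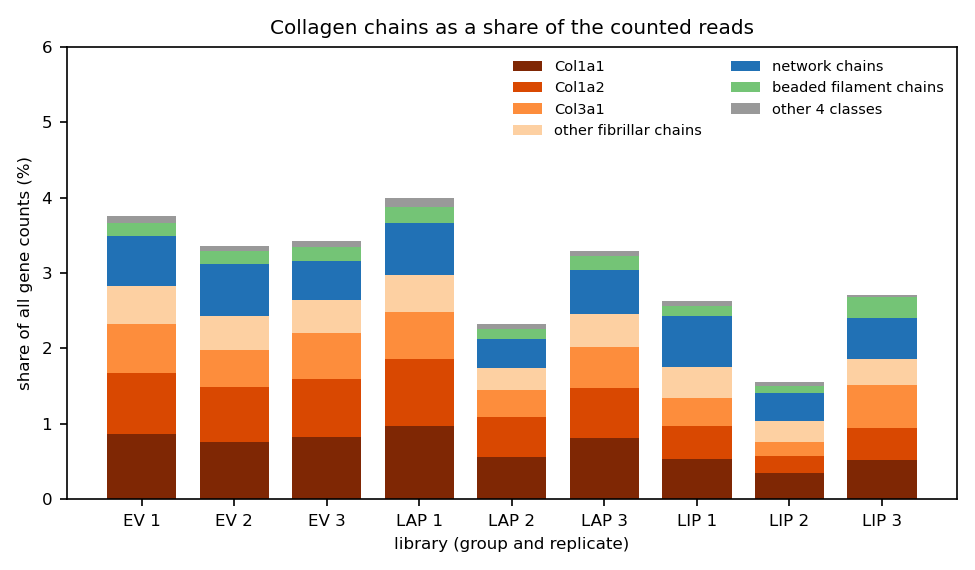
Share of all gene counts (%) that fell on collagen chains, as stacked bars for each of the 9 libraries, with Col1a1, Col1a2 and Col3a1 shown singly and the other chains by class. The LIP bars reach 1.55% to 2.71% and stay below the EV bars at 3.36% to 3.76%, and the darker fibrillar segments make most of the gap.

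Of the 43 chains, 30 had a mean of at least 20 counts over the 9 libraries and 15 a mean of at least 1000. The other 13 chains, Col2a1, Col4a3, Col6a5, Col6a6, Col9a1, Col9a2, Col13a1, Col14a1, Col18a1, Col19a1, Col22a1, Col23a1 and Col25a1, had fewer, and 6 of the 43 had at most 3 counts in every library. No chain was without counts. All 43 were tested in each comparison. The table held low counts for many genes with more than 1 curated transcript in RefSeq. The 28 chains with 1 curated transcript had a median of 1715 mean counts and 14 of them reached a mean of 1000, while the 15 with 2 or more had a median of 20 and 1 of them, Col6a2, reached it. Genes outside the collagens, chosen after their values were seen, showed the same contrast. Actb and Vim, with 1 curated transcript, had a mean of 96926 and 132549 counts, while Tpm1, with 10, had 37.9 and Ctnnb1, with 2, had 292. The part of transcript number in the levels of Col6a3, Col18a1, Col24a1 and the other chains with several transcripts was not tested, so levels of these chains were not ranked against others. Its part in their differences between groups was not tested either.

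In LIP against EV, 1 chain, Col8a2, was called lower and none higher, where 0.33% of all 18203 tested genes were called lower and 0.0659% higher. With p under 0.05 before adjustment, 14 of the 43 chains had lower values (6.75% of all genes) and 1 had higher values (4.23% of all genes), 10 chains were lower without overlap between the groups (8.83% of all genes), and none was higher without overlap (6.8% of all genes). Restricted to a mean of 20 counts or more, the 14 of 30 chains stood against 8.89% of genes, and the 10 without overlap against 11.2%. The fitted log2 fold change was below 0 for 22 of these 30 chains (47.9% of all such genes), and its median was -0.48 for the chains and 0.01 for all such genes. The chains were not lower alike: the log2 fold changes of the 30 spanned -2.18 to 0.72. Only Col8a2 passed the adjusted threshold, and with DESeq2's Wald test 8 chains did (1.36% of all genes), namely Col10a1, Col1a1, Col1a2, Col24a1, Col5a1, Col6a3, Col8a1 and Col8a2. By edgeR's test without LIP 1, 6 chains were called, where 1.56% of all genes were, and without LIP 3, 3 chains were, Col6a3 and Col8a2 lower and Col27a1 higher, where 2.06% of all genes were. With all 6 libraries, 72 genes were called, against 282 and 367 in these reduced fits, so more genes of any kind passed there.

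**Figure D2:**
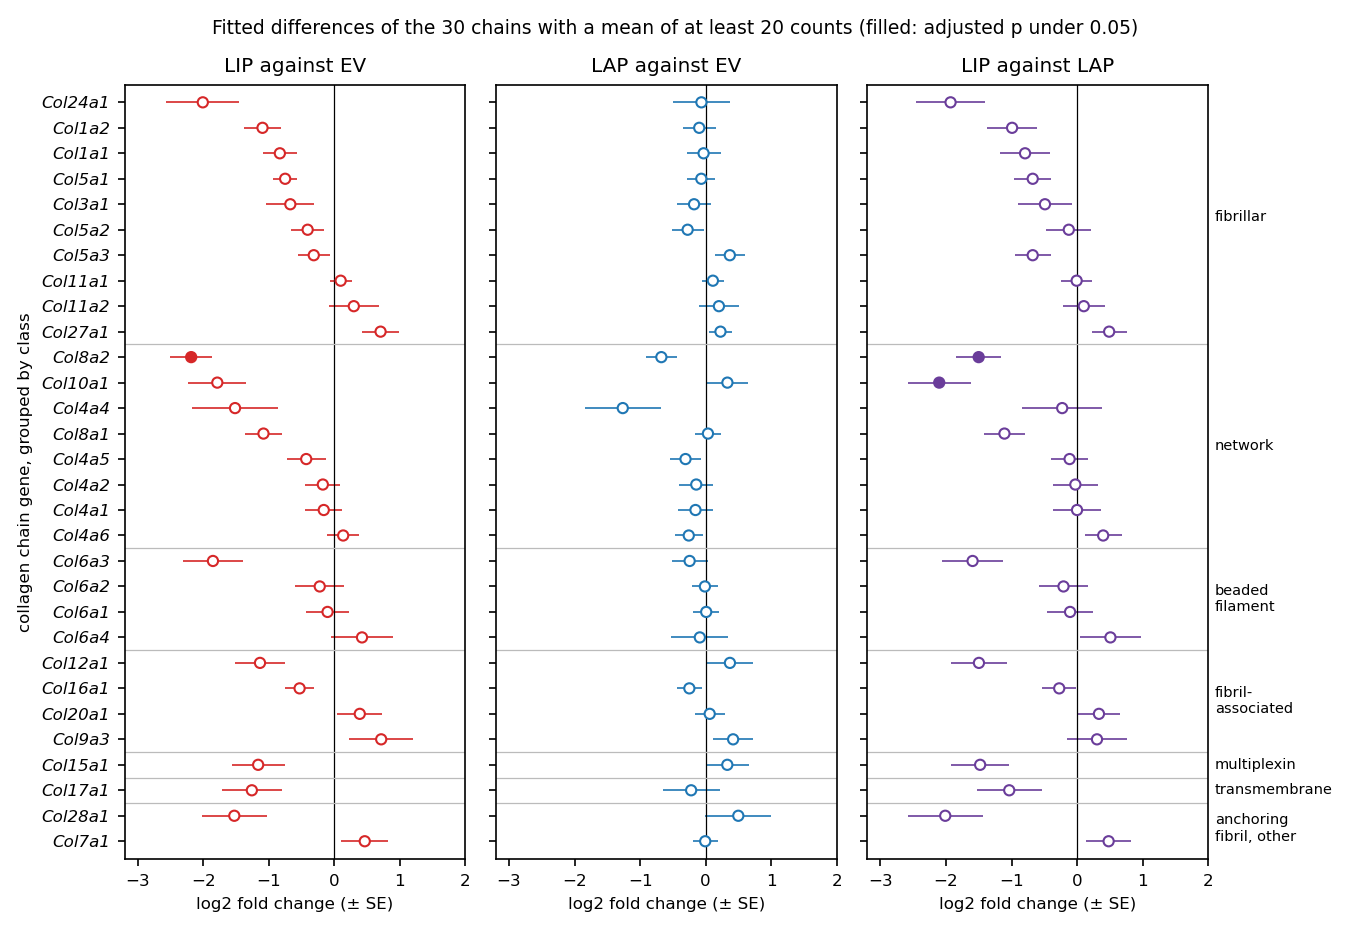
Log2 fold change with its standard error (horizontal axis) of the 30 chains with a mean of at least 20 counts, by class, for LIP against EV, LAP against EV and LIP against LAP. Filled points passed an adjusted p of 0.05, Col8a2 at -2.18 in LIP against EV, and Col8a2 at -1.50 and Col10a1 at -2.10 in LIP against LAP, while the LAP against EV points lie around 0 with a median of -0.05.

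Among the fibrillar chains, the partners of collagen I, the main protein of skin, bone and tendon, were the most abundant per kilobase in EV. Col1a2 stood at 1435 ± 72.8 CPM per kb and Col1a1 at 1372 ± 90.8, followed by Col3a1, the chain of the collagen III of elastic tissues, at 1047 ± 139, and by Col5a2 at 487 ± 64.8 and the network chain Col4a1 at 486 ± 95.1 (SD, n = 3 each). Neighbours in this order lay within their spread in EV for Col1a2 and Col1a1 and for Col5a2 and Col4a1. Col1a1 (chromosome 11, 94936224 to 94953042) had 8713, 7646 and 8057 CPM in EV 1, 2 and 3, 10048, 5879 and 8084 in LAP, and 5437, 3142 and 5155 in LIP. Col1a2 (chromosome 6, 4504814 to 4541544) had 8120, 7397 and 7508 CPM in EV, 9232, 5670 and 6727 in LAP, and 4386, 2096 and 4298 in LIP. For both genes every LIP library lay below every EV and every LAP library, LIP 2 lowest, while LAP and EV overlapped. Relative to EV, the log2 fold change in LIP was -0.83 ± 0.258 (SE) for Col1a1 with an adjusted p of 0.228, and -1.09 ± 0.287 for Col1a2 with an adjusted p of 0.138 by edgeR's test.

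Col3a1 (chromosome 1, 45311538 to 45349706) had 6494, 4979 and 6011 CPM in EV, 6429, 3699 and 5415 in LAP, and 3709, 1577 and 5698 in LIP. The LIP libraries were spread 3.61-fold here, with LIP 3 inside the range of EV and LIP 2 far below it, against 1.3-fold in EV. Against EV, LIP had a log2 fold change of -0.67 ± 0.366 (SE, adjusted p = 0.555 by edgeR). Col5a2 lies tail to tail with Col3a1 on chromosome 1, 24614 bases apart, and encodes a chain of collagen V, which sits inside collagen I fibrils and limits their width. It had 3602, 3322 and 2759 CPM in EV, 3299, 1904 and 2840 in LAP, and 3152, 1633 and 2524 in LIP, and all 3 groups overlapped (log2 fold change of LIP against EV -0.41 ± 0.257, SE, adjusted p = 0.633 by edgeR).

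Its partner Col5a1 (chromosome 2, 27886425 to 28039514) separated the groups more tightly. It had 1135, 1036 and 1284 CPM in EV, 1329, 868 and 1119 in LAP, and 776, 660 and 619 in LIP. All LIP libraries lay below all others and within 1.25-fold of each other, among the narrowest spreads in LIP. Relative to EV this gave a log2 fold change of -0.75 ± 0.188 (SE, adjusted p = 0.118 by edgeR). Col5a3, a rarer chain of collagen V, had 11.3, 10.3 and 16.6 CPM in EV, 15.3, 13.3 and 21.1 in LAP, and 7.67, 11.2 and 11.9 in LIP. It was lower in LIP than in LAP without overlap (log2 fold change -0.68 ± 0.272, SE, adjusted p = 0.389 by edgeR, and 0.0298 with the replicate number as a block). LIP and EV overlapped. With the block, 6 libraries say little on the spread of a single gene, so blocked p-values rest mostly on spread pooled over all genes. The labels only number the libraries, so every blocked value here and below also rests on an assumed pairing.

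Col24a1, a minor fibrillar chain related to those of bone, was low and scattered, with 11.8, 3.62 and 6.24 CPM in EV, 11.5, 6.47 and 2.81 in LAP, and 2.37, 2.65 and 0.388 in LIP. The LIP libraries lay below both other groups, with LIP 3 lowest and LIP 2, at 2.65 CPM, just under LAP 3, at 2.81 CPM. Fitted log2 fold changes were -2.01 ± 0.559 (SE, adjusted p = 0.173) in LIP against EV and -1.93 ± 0.527 (adjusted p = 0.0982, and 1.5e-08 with the block) in LIP against LAP by edgeR. The remaining fibrillar chains with at least 20 counts, Col11a1, Col11a2 and Col27a1, had log2 fold changes of 0.10, 0.30 and 0.71 in LIP against EV. Col27a1, named after its values were seen, was the only chain with higher values at an unadjusted p under 0.05 (0.0254, adjusted p = 0.371 by edgeR), and its groups overlapped, at 57.8 to 89.3 CPM in EV and 68.3 to 172 in LIP. Without LIP 2, its log2 fold change was 0.31.

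**Figure D3:**
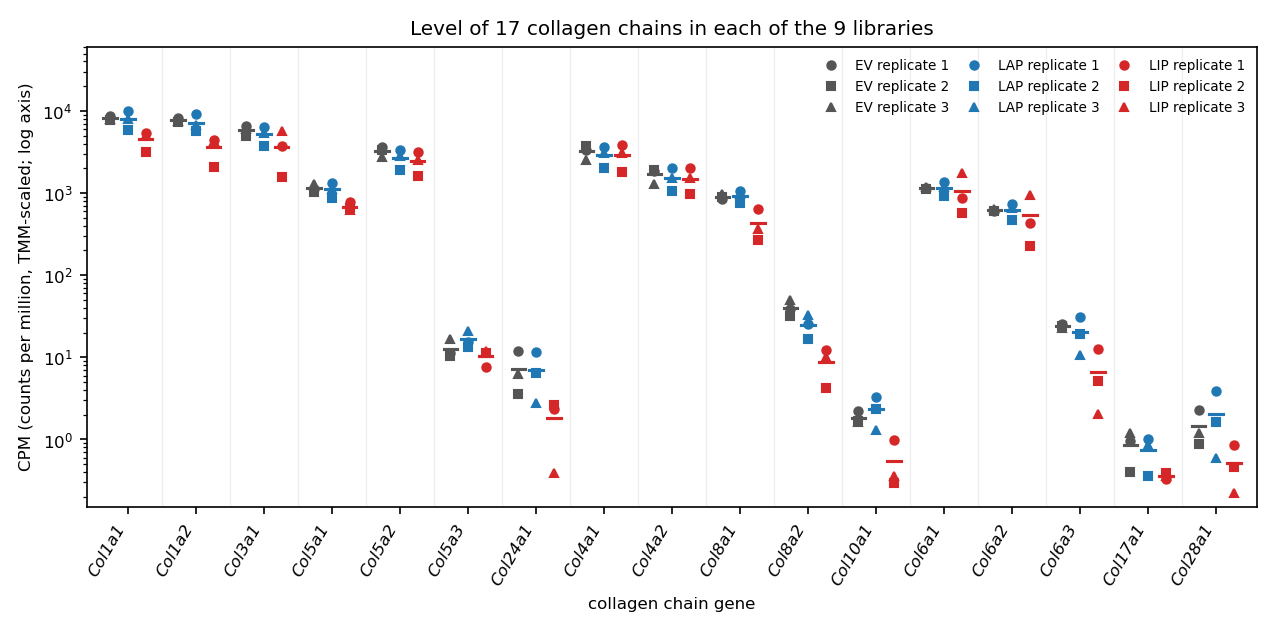
CPM on a log axis of 17 chains in each of the 9 libraries, with colour for the group, symbol for the replicate number and a line at the group mean. For Col1a1, Col1a2, Col5a1, Col8a1 and Col8a2 all 3 LIP points lie below all EV points, while for Col4a1, Col4a2, Col6a1 and Col6a2 they mix, with LIP 3 at 1754 CPM of Col6a1 as the highest of the 9.

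The network class held the called chains. Col8a2 (chromosome 4, 126286793 to 126314330) had 38.4, 32.2 and 49.2 CPM in EV, 25.5, 16.8 and 33 in LAP, and 12.2, 4.19 and 10 in LIP. LIP lay below both other groups, and LAP was intermediate, with LAP 3 reaching just above EV 2. The log2 fold change was -2.18 ± 0.323 (SE, adjusted p = 0.0152) in LIP against EV, -1.50 ± 0.339 (adjusted p = 0.0386) in LIP against LAP and -0.68 ± 0.232 (adjusted p = 0.918) in LAP against EV by edgeR. Its partner Col8a1 (chromosome 16, 57624258 to 57754737) had 842, 896 and 964 CPM in EV, 1050, 750 and 984 in LAP, and 648, 267 and 363 in LIP. LIP was again below both groups, while LAP and EV covered the same range. Its log2 fold change was -1.08 ± 0.275 (SE, adjusted p = 0.126) in LIP against EV and -1.11 ± 0.319 (adjusted p = 0.125, and 3.5e-07 with the block) in LIP against LAP by edgeR.

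Col10a1 (chromosome 10, 34389981 to 34397085) was a low gene, with 2.24, 1.66 and 1.61 CPM in EV, 3.33, 2.34 and 1.29 in LAP, and 0.98, 0.295 and 0.355 in LIP. Every LIP library lay below every other library, LIP 1 closest to LAP 3. The log2 fold change was -1.78 ± 0.441 (SE, adjusted p = 0.115) in LIP against EV and -2.10 ± 0.479 (adjusted p = 0.0391) in LIP against LAP by edgeR, on a mean of 47.1 counts over the 9 libraries. Acan, Comp, Sox9 and Matn1, markers of cartilage, where collagen X is best known, summed to 16.7 to 47.3 CPM per library and none of the 4 was called in any comparison, with or without the replicate block.

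The basement membrane chains of collagen IV behaved otherwise. Col4a1 and Col4a2, the ubiquitous pair, lie head to head on chromosome 8 (11198423 to 11312826 and 11312805 to 11449287), and their exons share 22 bases on opposite strands, whose reads cannot be assigned without strand. Col4a1 had 3390, 3742 and 2519 CPM in EV, 3659, 1991 and 3060 in LAP, and 3801, 1806 and 3031 in LIP. Col4a2 had 1845, 1932 and 1291 CPM in EV, 2014, 1053 and 1544 in LAP, and 2010, 970 and 1511 in LIP. Both genes had the same order of libraries within LAP and within LIP, replicate 1 highest and replicate 2 lowest, and no pair of groups separated. LIP against EV gave log2 fold changes of -0.16 ± 0.280 for Col4a1 and -0.17 ± 0.269 for Col4a2 (SE, adjusted p = 0.854 and 0.828 by edgeR).

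The other collagen IV chains are arranged in the same way, Col4a3 and Col4a4 71 bases apart on chromosome 1 and Col4a5 and Col4a6 1308 bases apart on the X chromosome. Their log2 fold changes in LIP against EV were -0.27 for Col4a3, -1.51 for Col4a4, -0.43 for Col4a5 and 0.14 for Col4a6. Col4a4 ranged over 6.21-fold within EV, from 0.41 to 2.55 CPM, and reached an unadjusted p of 0.0382 (adjusted p = 0.425 by edgeR).

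The beaded filament chains of collagen VI, which anchor cells to the matrix around them, diverged from each other. Col6a1 (chromosome 10, 76708792 to 76726168) had 1148, 1105 and 1173 CPM in EV, 1362, 921 and 1183 in LAP, and 872, 566 and 1754 in LIP. Col6a2, its neighbour on the same strand 85161 bases away, had 612, 606 and 647 CPM in EV, 746, 465 and 650 in LAP, and 426, 225 and 949 in LIP. In both genes EV was tight, LIP 1 and LIP 2 lay below it and LIP 3 above all other libraries, so the LIP mean hides a spread of 3.10-fold for Col6a1 and 4.21-fold for Col6a2. Fitted against EV, LIP stood at -0.10 ± 0.323 for Col6a1 and -0.22 ± 0.374 for Col6a2 on the log2 scale (SE, adjusted p = 0.931 and 0.851 by edgeR).

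Col6a3 (chromosome 1, 90765923 to 90843971), the long chain that joins the other two in the trimer, ran the opposite way in LIP 3. It had 25.4, 23.8 and 22.8 CPM in EV, 30.9, 19.4 and 10.8 in LAP, and 12.8, 5.18 and 2.07 in LIP. All LIP libraries were below EV, with LIP 3 lowest, and LIP 1 overlapped with LAP 3. Its log2 fold change was -1.85 ± 0.455 (SE, adjusted p = 0.112) in LIP against EV and -1.59 ± 0.461 (adjusted p = 0.127, and 1.6e-10 with the block) in LIP against LAP by edgeR. It is among the chains with 2 curated transcripts. Col6a4, the other chain of this class with at least 20 counts, had 0.443 to 1.05 CPM in EV and 0.531 to 1.36 in LIP.

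The smaller classes held 8 chains with at least 20 counts. Col17a1, the transmembrane collagen of hemidesmosomes, stood at the limit of 20 counts with 0.964, 0.406 and 1.2 CPM in EV, 1.02, 0.359 and 0.851 in LAP, and 0.327, 0.393 and 0.355 in LIP. Col28a1, a chain with von Willebrand factor A domains, had 2.27, 0.886 and 1.2 CPM in EV, 3.92, 1.65 and 0.592 in LAP, and 0.857, 0.459 and 0.226 in LIP. Both were lower in LIP than in EV without overlap, by a margin smaller than the spread within EV, and both overlapped with LAP. The log2 fold change in LIP against EV was -1.26 for Col17a1 (SE 0.457, adjusted p = 0.322 by edgeR) and -1.53 for Col28a1 (SE 0.497, adjusted p = 0.254 by edgeR). At an unadjusted p under 0.05 but with overlapping groups stood the fibril-associated Col12a1 at -1.13 and Col16a1 at -0.53 and the multiplexin Col15a1 at -1.16, named after their values were seen. Above 0 in these classes, without reaching that p, were Col20a1 at 0.39, Col9a3 at 0.72 and Col7a1, the anchoring fibril chain of skin, at 0.47. These values rest on LIP 2, and without it they were 0.01 for Col20a1, -0.23 for Col9a3 and -0.25 for Col7a1. Of the exons of Col9a3, 7.68% overlap those of Tcfl5 on the opposite strand.

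LIP libraries differed more from each other than EV libraries did. Over the 30 chains, the median ratio of the highest to the lowest library within a group was 1.49 in EV, 1.71 in LAP and 2.54 in LIP, and over all genes with at least 20 counts it was 1.22 in EV, 1.4 in LAP and 1.47 in LIP. LIP 2 was the lowest of the 9 libraries for 14 of the 30 chains and LIP 3 for 8. LIP 2 was also the highest for 5 chains and LIP 3 for 5. These numbers were not taken over all genes, so whether they are particular to the chains was not tested. Without LIP 2, the median log2 fold change of the chains in LIP against EV was -0.35 and 1 chain was called, of 30 genes called in all.

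Ratios of chains do not depend on the scaling of a library. They were compared per kilobase for 7 partner pairs in the 3 comparisons. The partners were chains of the same collagen, except Col3a1/Col1a1, which sets collagen III beside collagen I. The p-values were adjusted over 21 tests. None can pass with 3 libraries a group, since the smallest exact permutation p of 0.1 became 0.525 after adjustment. The Col1a1/Col1a2 ratio was 0.968, 0.932 and 0.968 in EV, 0.982, 0.935 and 1.08 in LAP, and 1.12, 1.35 and 1.08 in LIP. LIP was above EV without overlap, by 0.30 on the log2 scale, and LIP 3 met LAP 3. The Col8a1/Col8a2 ratio was 18.6, 23.6 and 16.6 in EV, 34.9, 37.8 and 25.3 in LAP, and 44.9, 54.1 and 30.8 in LIP. Both LAP and LIP were above EV without overlap, by 0.73 for LAP and 1.12 for LIP on the log2 scale, and overlapped with each other.

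The Col4a1/Col4a2 ratio was the steadiest, between 1.77 and 1.96 in all 9 libraries. The Col6a1/Col6a2 ratio was 2.65 to 2.75 in EV, 2.66 to 2.9 in LAP and 2.71 to 3.68 in LIP, and the groups overlapped. The Col6a3/Col6a1 ratio was 0.00734 to 0.00835 in EV and 0.000445 to 0.00555 in LIP, lower without overlap by 1.96 on the log2 scale. It overlapped between LAP and LIP. Col6a2 and Col6a3 have 2 curated transcripts and Col6a1 has 1. The part of transcript number in the size of their ratios, or in the differences of these ratios between groups, was not tested. The sizes are therefore not compared with those of other pairs. The Col3a1/Col1a1 ratio was 0.694 to 0.795 in EV and 0.535 to 1.18 in LIP, where LIP 3 was the highest and LIP 2 the lowest of all libraries. The Col5a1/Col5a2 ratio was 0.246 to 0.367 in EV and 0.193 to 0.318 in LIP. Neither of these last ratios separated any pair of groups.

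**Figure D4:**
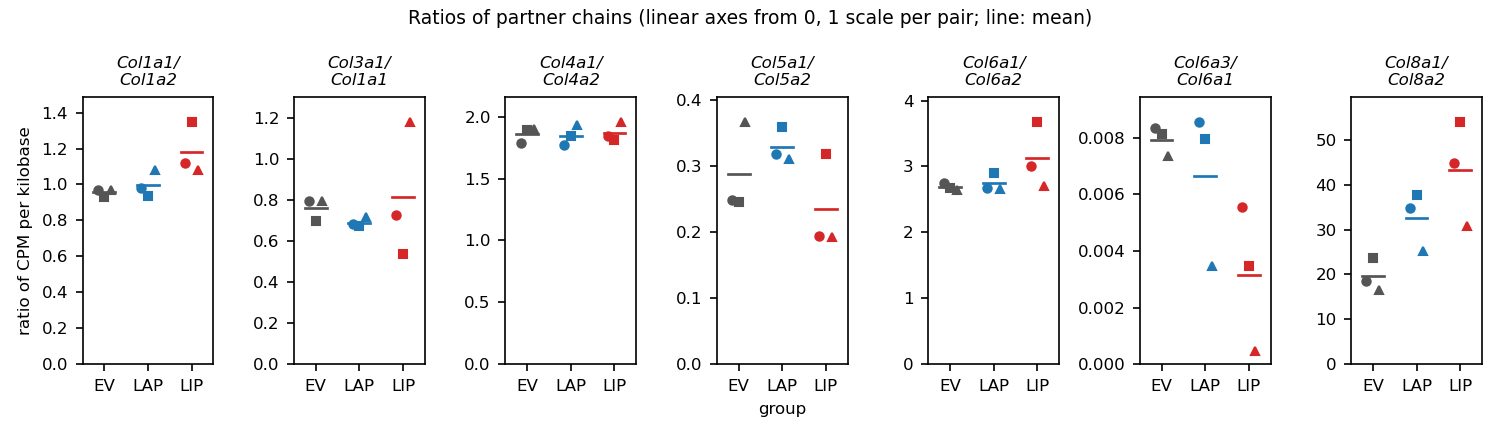
Ratio of CPM per kb of 7 pairs of chains in each library, on linear axes that start at 0. Colour marks the group, symbol the replicate number and a line the group mean. All pairs are chains of the same collagen except Col3a1/Col1a1. Col4a1/Col4a2 stays between 1.77 and 1.96, Col8a1/Col8a2 lies at 16.6 to 23.6 in EV and higher in LAP and LIP, and Col6a3/Col6a1 is lower in LIP than in EV. The part of transcript number in the size of the ratios with Col6a2 and Col6a3, or in their group differences, was not tested.

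In LAP against EV, no chain was called by edgeR's test, where 0.033% of all 18156 tested genes were called lower and 0.0275% higher, and none was called by DESeq2 (0.0881% lower and 0.0551% higher). Before adjustment, at p under 0.05, 2 chains had lower values, Col8a2 and Col4a4 (1.34% of all genes), and 1 had higher values, Col19a1 (1.93% of all genes). Col19a1 had 16 counts in all 9 libraries together. It was the 1 chain higher without overlap (3.96% of all genes), and none was lower without overlap (3.61%). No chain with at least 20 counts separated the groups (3.94% of such genes lower, 3.75% higher), and 18 of the 30 had a log2 fold change below 0 (49.6% of such genes). The median log2 fold change of the 30 chains was -0.05 and that of all such genes 0.00. Libraries of the same number deviated together in this comparison, and with the replicate number as a block Col8a2 was called lower, at a log2 fold change of -0.71 ± 0.142 (SE, adjusted p = 0.0316 by edgeR), where 0.165% of all genes were called lower.

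In LIP against LAP, 2 chains, Col8a2 and Col10a1, were called lower and none higher, where 0.837% of all 18166 tested genes were called lower and 0.209% higher. Before adjustment, at p under 0.05, 13 of the 43 chains had lower values (5.98% of all genes) and none higher ones (3.3%), 8 were lower without overlap (6.9%) and none higher (5.91%). All 13 and all 8 were among the 30 chains with at least 20 counts, where the shares of all genes were 7.68% and 7.95%. The latter were Col10a1, Col1a1, Col1a2, Col24a1, Col5a1, Col5a3, Col8a1 and Col8a2. Of the 30 chains, 23 had a log2 fold change below 0 (49.3% of all such genes), with a median of -0.25 against 0.00 for all such genes. No chain was called without LAP 2 (0.0389% of all genes) or without LIP 2 (0.525%). Without LAP 1, 1 chain was called (0.819% of all genes), and without LIP 1, 2 chains were (0.815%), though not Col8a2. Without LAP 3, 7 were called (2.28% of all genes), and without LIP 3, 7 were (2.52%). This comparison shares the LIP libraries with that against EV and is no independent evidence of it.

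Libraries of the same number deviated together here too, and with the replicate number as a block 13 chains were called lower and none higher, where 4.79% of all genes were called lower. The 13 were Col12a1, Col6a3, Col8a2, Col24a1, Col8a1, Col15a1, Col10a1, Col1a2, Col28a1, Col1a1, Col5a1, Col3a1 and Col5a3. Their log2 fold changes with the block ran from -2.13 for Col10a1 to -0.63 for Col3a1. With the block, the adjusted p was 5.8e-06 for Col1a2, 0.00056 for Col1a1 and 0.0177 for Col3a1 by edgeR. Very small blocked values draw on spread pooled over all genes and do not measure the agreement of the numbered libraries for 1 gene.

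The genes that modify, export, trim, link, bind and degrade collagen were described from 6 lists, of which 47 genes were tested in LIP against EV. None was called there by edgeR's test, while at an unadjusted p under 0.05 20 had lower values and none higher, against 6.75% and 4.23% of all genes, and 39 of the 47 had a log2 fold change below 0 (46.0% of all tested genes). Of the genes of these lists, 40 had a mean of at least 20 counts, and the other tested genes, with fewer, entered these numbers too. By DESeq2, 7 of the 47 were called lower (1.36% of all genes). By edgeR, 8 were called without LIP 1 (1.56% of all genes), 4 without LIP 3 (2.06%) and 2 without EV 3 (0.388%). In LAP against EV none was called and none reached an unadjusted p of 0.05, and 26 of 47 were below 0 (47.8% of all tested genes). In LIP against LAP, Ctsk was called lower (0.837% of all genes). At an unadjusted p under 0.05, 18 of 46 had lower values (5.98% of all genes) and 1 had higher values (3.3%). With the replicate block, 20 were called lower in that comparison, where 4.79% of all genes were, namely Adamts2, Ctsk, Ddr2, Fkbp14, Itga1, Itga11, Leprel1, Leprel2, Lox, Loxl2, Mrc2, P4ha1, P4ha3, P4hb, Pcolce, Pcolce2, Plod1, Plod3, Serpinh1 and Tll1.

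Of the 15 genes of chain hydroxylation and glycosylation, all were below 0 in LIP against EV, with a median of -0.65, and 5 reached an unadjusted p of 0.05. Among the 15 were Glt25d2, with at most 1 count in any library, and Lepre1, with a mean of 2.67 counts. Their signs rest on few counts. P4ha3, a catalytic subunit of prolyl 4-hydroxylase, had 50.5, 45.5 and 45 CPM in EV, 56.2, 44.7 and 26.8 in LAP, and 33.3, 17.9 and 24.6 in LIP. LIP lay below EV without overlap and met LAP 3 (log2 fold change -0.90 ± 0.210, SE, adjusted p = 0.101 by edgeR). Leprel1, a prolyl 3-hydroxylase, had the smallest p of the list in LIP against LAP, at -1.14 with an adjusted p of 0.238 by edgeR, and 2.4e-05 with the replicate block. Of the 6 tested genes of chain folding and export, all were below 0 with a median of -0.46, and 2 reached an unadjusted p of 0.05. Mia3, the cargo receptor that loads collagen into vesicles, had 216 to 244 CPM in EV and 124 to 196 in LIP, without overlap (log2 fold change -0.50 ± 0.185, SE, adjusted p = 0.328 by edgeR). Fkbp10 of this list, with 0 counts in all libraries, was not tested.

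Among 8 genes of propeptide cleavage, 4 were below 0, all with an unadjusted p under 0.05, the other 4 were above 0, and the median was -0.36. Adamts14, another protease for the amino-terminal ends, was among the latter at 0.45, and at 0.53 in LIP against LAP it was the gene with higher values at an unadjusted p under 0.05 (adjusted p = 0.498 by edgeR). Adamts2, the protease that removes the amino-terminal ends of the fibrillar chains, had 67, 51.7 and 39 CPM in EV and 28.7, 25.2 and 33.6 in LIP, without overlap (log2 fold change -0.85 ± 0.206, SE, adjusted p = 0.109 by edgeR). Pcolce, which enhances removal of the carboxy-terminal ends, had 497 to 681 CPM in EV, 440 to 934 in LAP and 209 to 433 in LIP, with LIP below both groups (adjusted p = 0.118 against EV and 0.148 against LAP by edgeR, the latter 4.1e-06 with the replicate block). Of 5 cross-linking genes, 4 had lower values at an unadjusted p under 0.05, and the median was -0.74. Loxl1 had 390 to 491 CPM in EV and 201 to 337 in LIP (log2 fold change -0.74 ± 0.204, SE, adjusted p = 0.166 by edgeR). Lox, the lysyl oxidase that starts the cross-links of collagen I, had 2299 to 2584 CPM in EV, 1724 to 3151 in LAP and 670 to 1578 in LIP, again with LIP below both groups (adjusted p = 0.278 against LAP by edgeR, and 2.6e-06 with the replicate block).

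Among 8 receptor genes, 3 had lower values at an unadjusted p under 0.05, and the median was -0.43. Itga11, the integrin subunit by which fibroblasts bind collagen I, had 65, 34.2 and 36.3 CPM in EV, 69.5, 29.9 and 11.4 in LAP, and 18, 7.08 and 3.46 in LIP. LIP lay below EV without overlap and LIP 1 above LAP 3 (log2 fold change -2.25 ± 0.462 against EV, SE, adjusted p = 0.0645 by edgeR). In LIP against LAP, Itga11 had an adjusted p of 0.086 by edgeR. With the replicate block it was 4.6e-13, a value that rests on an assumed pairing and on spread pooled over all genes. Of 5 genes of collagen cleavage, 2 had lower values at an unadjusted p under 0.05, and the median was -0.62. Of the others, Mmp2 stood at -0.01 and Mmp13 at 0.90. Mmp8, with 1 count in EV 3 and 0 in every other library, entered this median at -1.83, a value that rests on that count. Ctsk, the cathepsin that cuts the triple helix, had 24.2, 24.7 and 16.7 CPM in EV, 32.3, 42 and 9.4 in LAP, and 10.5, 5.18 and 3.04 in LIP. It was below EV without overlap (log2 fold change -1.81, adjusted p = 0.0586 by edgeR), and was called lower in LIP against LAP (-2.13, adjusted p = 0.0255 by edgeR) although LIP 1 exceeded LAP 3. Mmp13, a collagenase, had the smallest p of its list in LAP against EV, with 13.2, 14.3 and 2.34 CPM in EV and 29, 29.6 and 1.78 in LAP. LAP 1 and 2 were above EV and LAP 3 below it (log2 fold change 1.01 ± 0.701, SE, adjusted p = 0.918 by edgeR). In LIP, Mmp13 had 19.8, 16.8 and 19 CPM, higher than EV without overlap, as were 6.8% of all genes. Its log2 fold change in LIP against EV was 0.90 ± 0.455 (SE, adjusted p = 0.508 by edgeR).

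**Figure D5:**
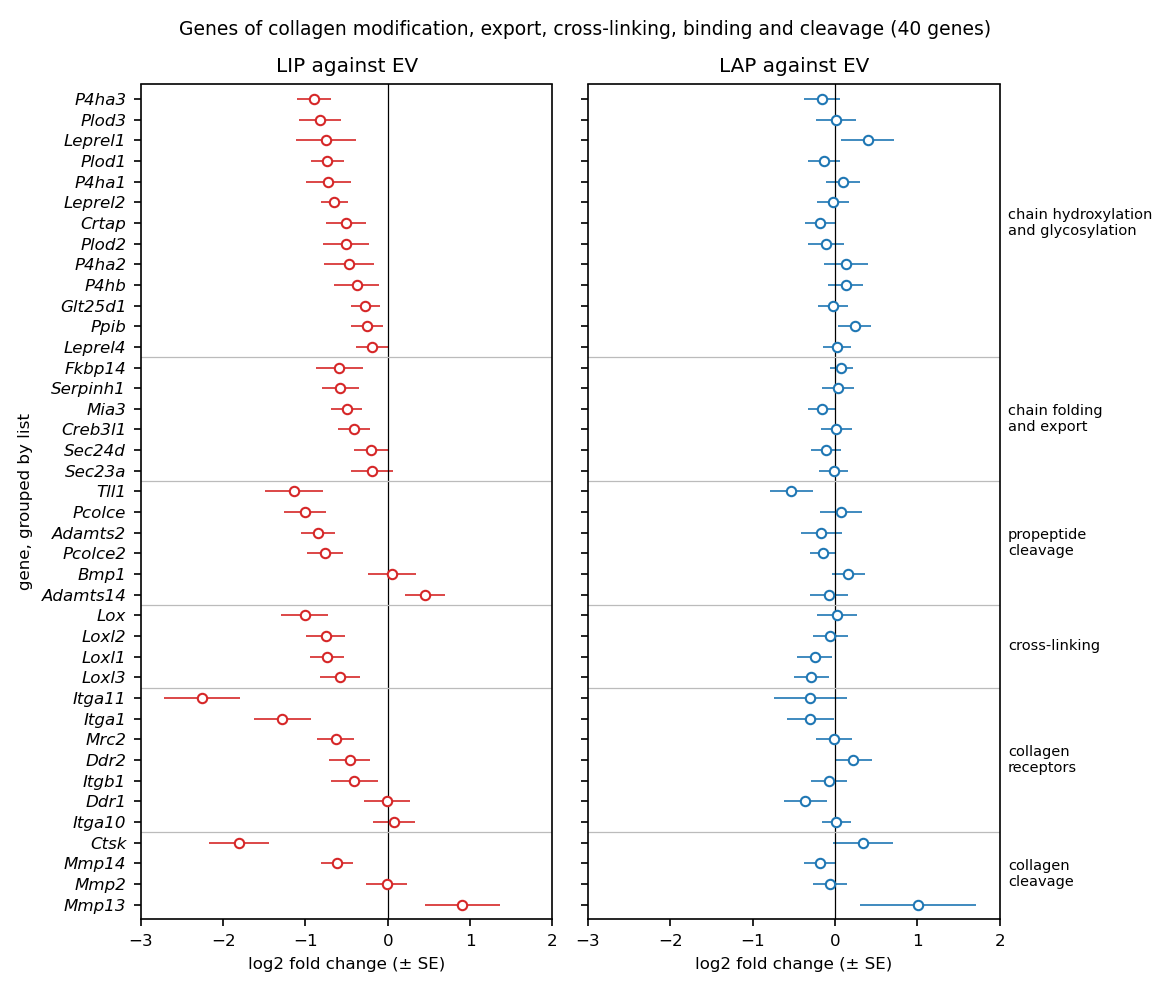
Log2 fold change with its standard error (horizontal axis) of the 40 genes of the 6 lists with a mean of at least 20 counts, for LIP against EV and LAP against EV. In LIP against EV most points lie left of 0, with Itga11 at -2.25 and Ctsk at -1.81 farthest out, while in LAP against EV they scatter on both sides, and none passed an adjusted p of 0.05.

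Marker lists were read beside the collagens. Of 8 fibroblast markers, 5 had lower values in LIP against EV at an unadjusted p under 0.05 and 7 were below 0. Of all genes tested there, 6.75% had lower and 4.23% higher values at that p, and 46.0% were below 0. Postn, a matrix protein that binds collagen I, was called lower, with 4.57, 4.1 and 3.54 CPM in EV and 1.55, 0.426 and 0.388 in LIP (log2 fold change -2.40, adjusted p = 0.0481 by edgeR). In LIP against LAP, Postn and Fap were called lower by edgeR (0.837% of all genes). With the replicate block, Thy1 (adjusted p = 3.5e-07), Pdgfrb (0.0049) and Pdgfra (0.0088) were also called lower by edgeR (4.79% of all genes). With the block, Fap was called higher in LAP against EV (log2 fold change 1.03, adjusted p = 0.0316 by edgeR), where 0.132% of all genes were called higher. The markers Vim and S100a4 had log2 fold changes of -0.07 and 0.02 in LIP against EV. Another of these markers, Fn1, had 8045 to 10150 CPM in EV and 4258 to 9905 in LIP and overlapped (log2 fold change -0.28, adjusted p = 0.722 by edgeR). The 8 summed to 15112 to 16383 CPM in EV, 14189 to 17454 in LAP and 10195 to 16713 in LIP. Of the markers of epithelium, leukocytes, endothelium, muscle, cartilage, bone and adipocytes, none was called in any comparison without the block. With the block in LIP against LAP, Sp7 of bone (adjusted p = 3.7e-05), Fabp4 of adipocytes (0.0026), Csf1r of leukocytes (0.029) and Tek of endothelium (0.039) were called lower by edgeR, where 4.79% of all genes were. Of the 6 epithelial markers, which summed to 577 to 706 CPM in EV and 587 to 1004 in LIP, Krt8 and Krt18 had higher and Cdh1 lower values in LIP against EV at an unadjusted p under 0.05. Of 3 tested adipocyte markers, 2 had lower values at that p, on a sum of 1.37 to 2.8 CPM in EV and 0.452 to 1.02 in LIP. Summed levels in EV and LIP lay at 3.43 to 5.62 and 4.75 to 8.91 CPM for leukocytes, 2.9 to 3.61 and 1.54 to 2.9 for endothelium, 1.15 to 2.11 and 1.67 to 2.03 for muscle, and 8.08 to 12.2 and 3.07 to 10.2 for bone. The part of these markers in the collagen differences was not tested.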

How the data were processed

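RNA of 9 libraries (EV, LAP and LIP, 3 each, grouped by their labels) was sequenced as unstranded 50 base single reads. The authors deposited raw counts per gene symbol, without normalization. Per the labels and the study's methods they used bcl2fastq 1.8.3, TopHat 1.4.1 on the mouse mm10 genome with RefSeq genes, and HTSeq 0.5.4; the strand setting and the handling of reads with several alignments are not given in the sources used here. There were 0 unused columns.

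Each comparison took the 6 libraries of its groups and genes with at least 1 count in them, with TMM scaling. It used edgeR 4.0.16 under R 4.3.3 (quasi-likelihood test, no covariates, Benjamini-Hochberg adjustment, threshold 0.05). The test was also run on counts simulated with the spread of a trend over all genes. That run does not show how the test behaves on these libraries. The SE was taken as log2 fold change over root F. Printed CPM are scaled over all 9 libraries. Lengths and positions are those of GENCODE M21 (GRCm38), which held all 43 chains. Partner ratios were compared by two-sided exact permutation.

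Described in every library are chains past the threshold in any comparison, the 5 highest per kilobase in EV and chains of 7 partner pairs. So are chains with an unadjusted p under 0.05, no overlap and a mean of at least 20 counts. Of the pathway lists, genes past the threshold and some with the smallest p in a comparison are described. Several of these are given by range, by some of the groups or by log2 fold change only. The members, classes, pathway and marker lists were chosen with earlier results of these data known. Alternatives were DESeq2 1.42.0, alone and together with edgeR's exact test, robust and non-legacy estimation, DESeq2's size factors, total counts, filterByExpr, a model of all 9 libraries, each library left out and the replicate number as a block. Libraries of the same number, which the labels only number, correlated in their deviations from the group means over 11535 genes. The correlations were 0.223 to 0.546 in LAP against EV and 0.421 to 0.577 in LIP against LAP. For these comparisons, chains and pathway genes called with the block are named, and the blocked adjusted p is printed for some of them. Whether they were made together is not given in the sources used here. Figures were drawn with matplotlib 3.10.9.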

Additional observations from a re-analysis of the deposited data

How the results depend on the processing

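Adjusted calls depended on the test and on single libraries. Each of the chains with at least 20 counts and an unadjusted p under 0.05 kept its direction in every setting run. These chains were picked by that p in the same libraries, so this is no separate support. Chains not picked so could change sign. Without LIP 2, Col9a3 went from 0.72 to -0.23 and Col6a2 from -0.22 to 0.13 in LIP against EV. In LIP against EV, 1 chain and 0 pathway genes were called, of 72 genes called in all. DESeq2 called 8 and 7, of 321 in all, and the edgeR exact test together with DESeq2 called 7 and 4, of 257. The robust and the non-legacy forms and filterByExpr called 0 chains, of 29, 19 and 4 genes in all. Leaving out 1 library gave 1 to 6 chains and 0 to 8 pathway genes, of 22 to 367 in all. In LIP against LAP, with 2 chains and 1 pathway gene, the robust form, the non-legacy form and filterByExpr called 0 and 0, total counts alone 0 chains, the replicate block 13 and 20, and leaving out 1 library gave 0 to 7 chains and 0 to 4 pathway genes. In LAP against EV, 0 chains were called in every setting but the replicate block, with 1. In LIP against EV the replicate block called 9 chains and 12 pathway genes. Libraries of the same number correlated at -0.119 to 0.311 there, below 0.1 in 1 of the 3 pairs, so a pairing is not established for that comparison. Pairs in the other 2 comparisons would imply pairs here, so the block is an assumption in all 3. The 9 chains, all lower, were Col10a1, Col12a1, Col15a1, Col1a2, Col24a1, Col4a4, Col6a3, Col8a1 and Col8a2. In that comparison, 2.21% of all genes were called lower with the block. The block left the pathway genes called in LAP against EV at 0.

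The median log2 fold change of the chains ran from -0.66 to -0.35 in LIP against EV, from -0.28 to 0.08 in LAP against EV and from -0.64 to -0.15 in LIP against LAP with 1 library left out. Without the 3 chains with the most counts, the mean collagen share was 1.35% in EV, 1.22% in LAP and 1.1% in LIP. Depth limits the chains under 20 counts, whose log2 fold changes in LIP against EV had standard errors from 0.430 for Col18a1 to 2.02 for Col13a1. The cause of these changes was not tested.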
